A study of Homo sapiens with 6 samples.

Results

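The mitochondrial ribosomal proteins are the genes whose symbol begins with MRPL or MRPS followed by a number, with or without a closing letter. All 78 genes that met this rule were listed in both deposited tables, out of 14270 genes in both, 16824 in the second table and 15167 in the first. Of the 78, 49 carry an MRPL symbol and 29 an MRPS symbol. The labels describe 6 RNA samples of U2OS, an established human osteosarcoma cell line transfected with a plasmid for an NSun2 mutant. NSun2 is an RNA cytosine methyltransferase. The samples were 2 of RNA precipitated with the mutant from cells in which a short hairpin RNA knocked down DNMT1 (shDNMT1), 2 such samples from control cells carrying shNC, with the genotype label WT, 1 input from shDNMT1 cells and 1 input from shNC cells. DNMT1 maintains cytosine methylation in DNA. Neither table names a sample, so which of these groups a table comes from, and whether it pools libraries, is unknown, and comparisons between the groups were not made. Each gene has 1 FPKM value per table (fragments scaled to transcript length and to the total of mapped fragments), so there is no replicate, SD or test. All differences below are between these tables only.

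Mitochondria carry their own ribosome, which translates the few mRNAs of the mitochondrial genome into membrane subunits of the respiratory chain and ATP synthase. Its RNAs are mitochondrial transcripts, while all its proteins are encoded in the nucleus, made in the cytosol and imported. The large subunit (most MRPL genes) holds the peptidyl transferase centre and the exit tunnel, and the small subunit (most MRPS genes) holds the mRNA and decodes it. Some proteins have a bacterial counterpart and others are specific to mitochondria. The symbol is not a full guide to place: in the known structure MRPS18A and MRPS30 lie in the large subunit, and MRPS36, now named KGD4, belongs to the oxoglutarate dehydrogenase complex instead of the ribosome.

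The promoters of these genes shared sequence features that FPKM did not enter. RefSeq promoters (GRCh38.p14, 250 bases before to 50 after the gene start) matched 69 of the 78 genes by symbol. They were searched on both strands for the letters CCGGAAG, a core bound by the ETS factor GABPA, AANATGGC, a core bound by YY1, and GCATGCGC, a core bound by NRF1. These factors are known regulators of nuclear genes for mitochondria. The GABPA letters were in 29 of the 69 promoters (42.0%), against 22.2% of 5483 promoters of genes above the level filter (a mean over the tables above 4.93 FPKM, the median mean level) and 10.7% of 27305 promoters in all. The YY1 letters were in 25 of 69 (36.2%), against 12.3% and 6.82%. The NRF1 letters were in 6 of 69 (8.70%), against 6.13% and 3.27%. No member promoter had sites of different motifs that overlapped. Of 74 nuclear genes of respiratory chain and ATP synthase subunits, only 50 matched a promoter by symbol, so these may not stand for the whole list. The GABPA, YY1 and NRF1 letters were in 30.0%, 38.0% and 18.0% of these 50 promoters. A match describes these letters in this window and does not show binding.

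**Figure D1:**
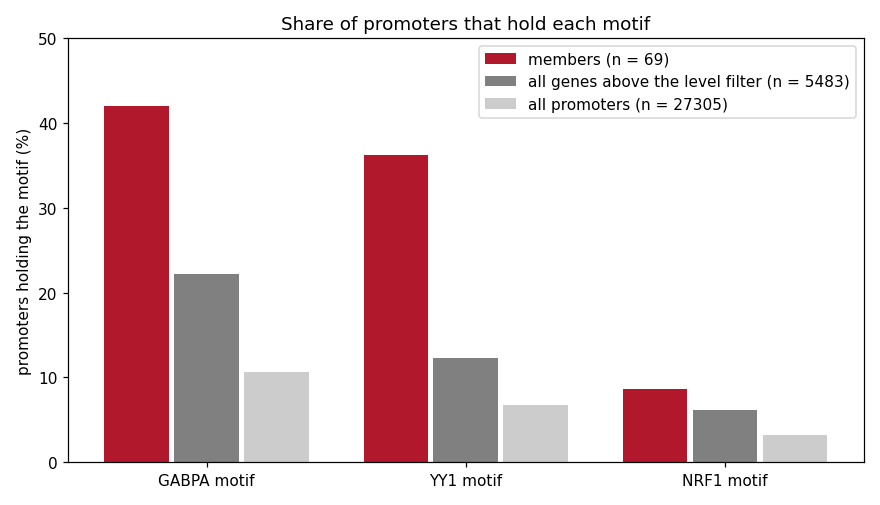
Percent of promoters holding the letters of each motif on either strand, for 69 mitochondrial ribosomal protein genes, 5483 genes above the level filter and 27305 promoters in all. The member bars stand at 42.0% for GABPA and 36.2% for YY1, against 22.2% and 12.3% of genes above the level filter.

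The YY1 letters sat mostly just after the gene start, where the window, ending 50 bases in, limits how far a site can lie. In 22 of the 25 promoters with them, a site lay after the gene start on the gene's own strand, with its first base 7 to 36 bases into the transcript (median 15.5). That made 31.9% of the 69 promoters, against 6.51% of genes above the level filter and 24.0% of the 50 promoters of respiratory chain subunits. The letters contain ATG, and whether these sites coincide with the start codon was not examined. The 30-base stretches below show this site in 4 promoters of members with a high and 4 of members with a low ratio between the tables. The capitals mark the YY1 letters.
MRPL32, chr7:42932373-42932402, plus strand: ttccagcagggAAAATGGCgctggccatgc
MRPS10, chr6:42217834-42217863, minus strand: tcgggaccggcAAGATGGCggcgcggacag
MRPS9, chr2:105038079-105038108, plus strand: ctcccacagctAACATGGCggcgccctgtg
MRPS27, chr5:72320206-72320235, minus strand: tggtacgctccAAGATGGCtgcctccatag
MRPL42, chr12:93467511-93467540, plus strand: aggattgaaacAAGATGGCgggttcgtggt
MRPL38, chr17:75904860-75904889, minus strand: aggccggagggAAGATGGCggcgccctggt
MRPL50, chr9:101398577-101398606, minus strand: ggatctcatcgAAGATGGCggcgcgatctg
MRPS18A, chr6:43687764-43687793, minus strand: gtaggtttttgAAGATGGCggccctcaagg

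The GABPA letters often lay close before the start. Of 39 sites in member promoters, 22 had their first base within the 60 bases before it. How often sites in other promoters lie there was not counted. The stretches below show a site near the start in 3 members with a high and 3 with a low ratio, with the GABPA letters, or their reverse complement, in capitals.
MRPS10, chr6:42217865-42217894, minus strand: ccgctgtaaccCCGGAAGcaatcctgagag
MRPS31, chr13:40771204-40771233, minus strand: aaggcgccaggCCGGAAGcggaagagaggg
MRPL3, chr3:131502985-131503014, minus strand: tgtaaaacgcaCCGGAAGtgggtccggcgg
MRPL28, chr16:370513-370542, minus strand: cggcagatcggCTTCCGGttccggtgggct
MRPS34, chr16:1773135-1773164, minus strand: tCTTCCGGtgaCTTCCGGccggaccgctga
MRPS12, chr19:38930928-38930957, plus strand: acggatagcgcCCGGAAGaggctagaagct

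The 250 bases before the start are printed for MRPL32, which was among the members that stood highest in the second table, and for MRPS34, which stood lower in it. Capitals mark the letters of any of the 3 motifs on either strand. MRPL32 holds a YY1 and an NRF1 site there, and MRPS34 holds 3 GABPA sites, of which the last pair is also in the stretch above.
MRPL32, chr7:42932126-42932375, plus strand: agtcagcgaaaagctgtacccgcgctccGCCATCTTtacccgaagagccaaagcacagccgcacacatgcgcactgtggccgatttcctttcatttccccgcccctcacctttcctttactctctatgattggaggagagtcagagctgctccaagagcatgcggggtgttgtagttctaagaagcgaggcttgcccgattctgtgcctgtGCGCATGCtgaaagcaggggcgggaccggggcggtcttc
MRPS34, chr16:1773135-1773384, minus strand: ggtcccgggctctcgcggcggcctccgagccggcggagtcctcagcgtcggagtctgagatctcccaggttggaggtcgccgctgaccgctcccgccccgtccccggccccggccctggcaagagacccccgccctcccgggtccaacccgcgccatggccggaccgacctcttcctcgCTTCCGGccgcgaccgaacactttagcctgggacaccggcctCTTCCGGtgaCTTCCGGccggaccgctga

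**Figure D2:**
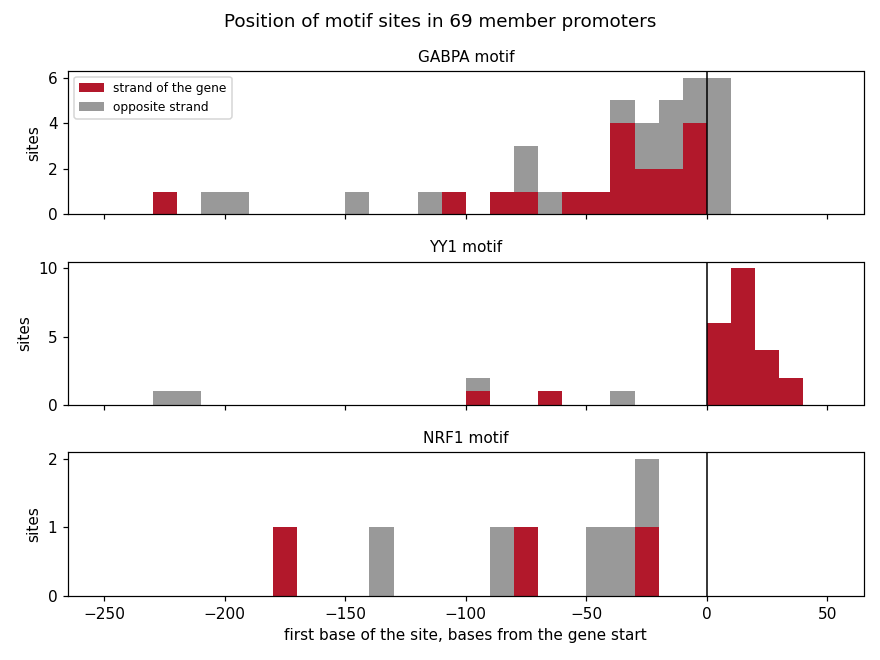
Number of motif sites in 69 member promoters by the distance of their first base from the gene start, in bins of 10 bases, stacked by strand. YY1 sites gather just after the start on the gene's strand, where 22 of 28 sites lie, and 22 of 39 GABPA sites lie within the 60 bases before it.

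Levels and ratios of the members were also set out by motif. The 25 members with the YY1 letters had a median of 35.5 FPKM in the second table and 29.4 FPKM in the first, and the 44 without them 33.9 and 30.2 FPKM. Their median log2 ratios of second over first, taken on log2(FPKM + 1), were 0.09 with the letters and 0.13 without. For the GABPA letters the medians were 0.14 in 29 members with them and 0.11 in 40 without. The NRF1 letters had the widest gap, with a median of 0.26 in only 6 members with them and 0.09 in 63 without. The transcript of YY1 itself was listed at 14.6 FPKM in the second table and 9.25 FPKM in the first, which is 0.61 as a log2 ratio. GABPA was listed at 2.11 and 1.59 FPKM and NRF1 at 8.29 and 8.52 FPKM.

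The mitochondrial ribosomal protein mRNAs were among the transcripts with higher FPKM in both tables. Here and below, abundant means high in FPKM. A table may come from precipitated RNA, and its FPKM may then not give the level in the cells. Their median was 32.9 FPKM in the second table and 28.1 FPKM in the first, against medians of 3.43 and 4.03 FPKM over all genes listed in each. Of the 78, 75 lay above the median of the second table and 73 above that of the first, and their median percentiles were 88.0 and 85.1. Their share of all summed FPKM was 0.534% in the second table and 0.477% in the first. The order of levels was nearly kept between the tables: Spearman's rho of FPKM was 0.96 across the 78 genes, which share the tables' normalisation and are not independent, and 0.96 across all genes in both. The spread within the ribosome was wide, with a 102-fold range between the highest and the lowest member in the second table and a 458-fold range in the first, set by MRPS31 at the low end.

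**Figure D3:**
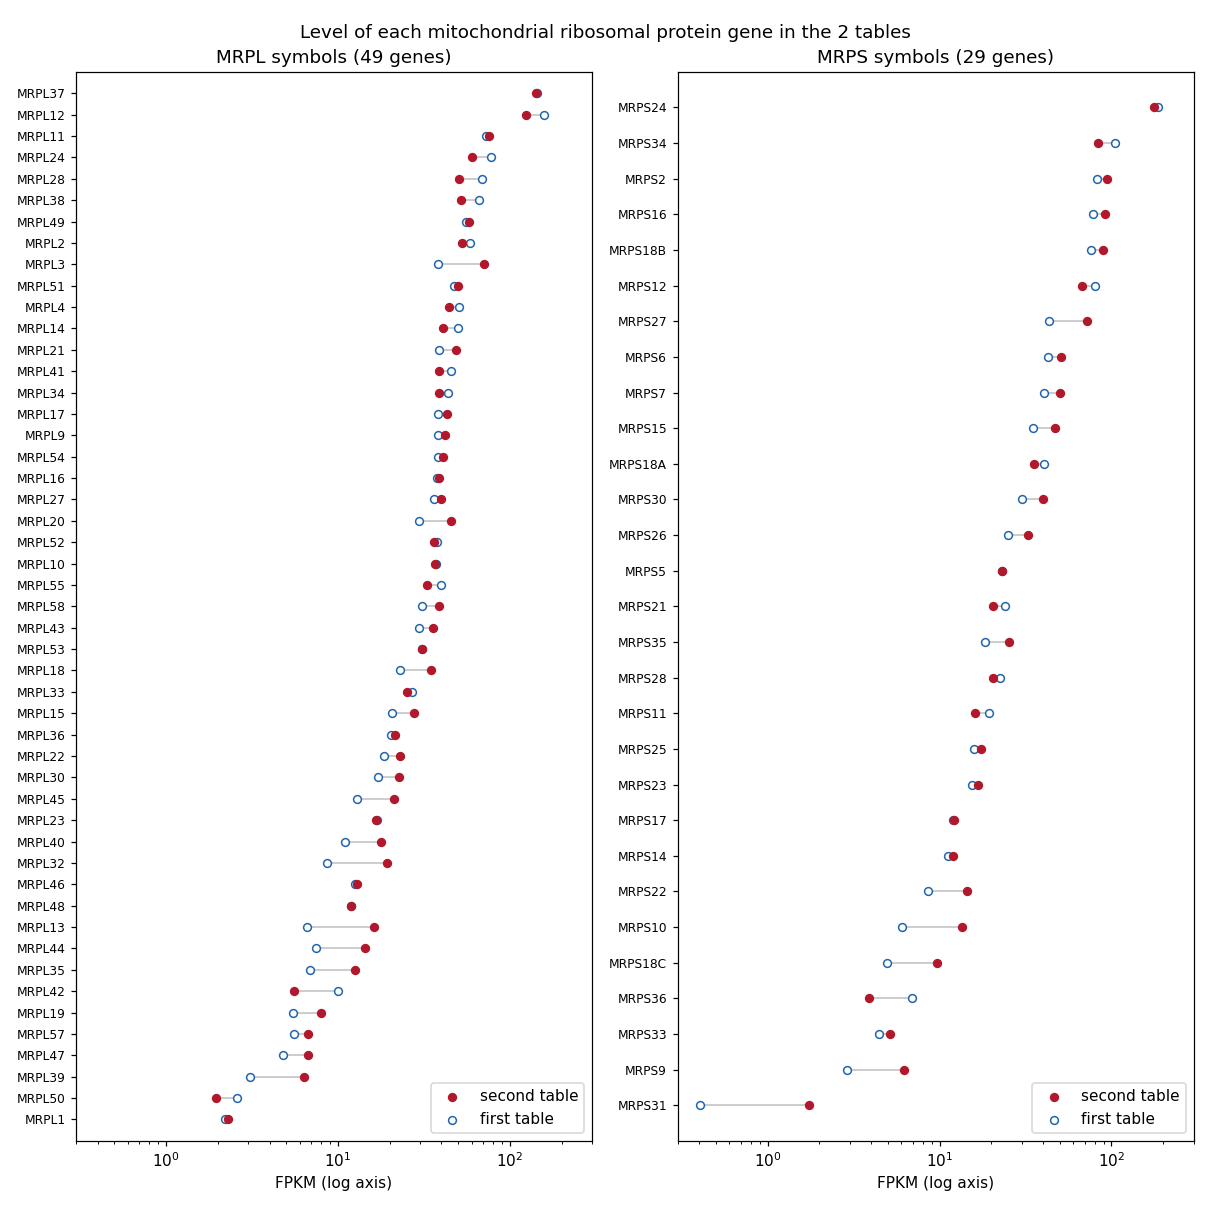
FPKM of each of the 49 MRPL and 29 MRPS genes on a log axis, ordered by mean level, with filled points for the second table and open points for the first. The points of a gene lie close together for most genes, from MRPS24 at 178 and 186 FPKM to MRPL1 at 2.29 and 2.21 FPKM, while MRPS31 has the widest gap.

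In the large subunit, MRPL37, a mitochondria-specific protein, was the most abundant by mean, at 142 FPKM in the second table and 144 FPKM in the first. MRPL12, the stalk protein through which translation factors are recruited, was listed at 124 FPKM in the second table and 158 FPKM in the first. Its locus also held SLC25A10, at 58.9 and 103.8 FPKM, and fragments at a shared locus could be divided between genes upstream. MRPL11, at the stalk base, had 76.0 and 72.4 FPKM. Its neighbour in the stalk, MRPL10, which carries the MRPL12 copies, had 36.5 and 37.0 FPKM, so that within each table the stalk proteins differed more from each other than any of them did between tables. MRPL24, beside the tunnel exit, followed with 60.2 FPKM in the second table and 77.4 FPKM in the first. MRPL28 was listed at 50.9 and 69.1 FPKM and MRPL38 at 51.7 and 66.5 FPKM. MRPL12, MRPL24, MRPL28 and MRPL38 were lower in the second table, by 0.35 to 0.43 on the log2(FPKM + 1) scale. MRPL37 and MRPL10 were also lower, each with a log2 ratio of -0.02, and MRPL11 was higher, with 0.07.

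At the low end of the large subunit, MRPL1, the counterpart of a mobile bacterial stalk protein, was listed at 2.29 FPKM in the second table and 2.21 FPKM in the first. MRPL50 had 1.95 and 2.60 FPKM, MRPL39 6.36 and 3.06 FPKM, and MRPL47, the counterpart of bacterial L29 at the tunnel exit, 6.70 and 4.78 FPKM. MRPL1 and MRPL12, both of stalks of the same particle, thus lay near opposite ends of the range in both tables. MRPL58, a peptidyl-tRNA hydrolase that became a ribosomal protein, was listed at 38.6 and 31.0 FPKM, and MRPL41, also reported to bind BCL2, at 38.9 and 45.3 FPKM.

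In the small subunit, MRPS24, the counterpart of bacterial S3 at the mRNA entry, was the most abundant of all members, at 178 FPKM in the second table and 186 FPKM in the first. MRPS34 had 83.7 and 105.3 FPKM, MRPS2 94.2 and 82.6 FPKM, and MRPS16 91.4 and 77.9 FPKM. MRPS12, the counterpart of the decoding-centre protein S12, was listed at 67.2 FPKM in the second table and 79.7 FPKM in the first. MRPS5, beside MRPS24 at the mRNA entry, had 23.1 and 23.0 FPKM, well under its neighbour in both tables. The lowest of the MRPS genes were MRPS31 at 1.74 and 0.405 FPKM, MRPS9 at 6.19 and 2.91 FPKM, and MRPS33 at 5.15 and 4.47 FPKM. With them was MRPS36, which is no part of the ribosome, at 3.87 and 6.90 FPKM. Pseudogenes named MRPS31P4 and MRPS31P5 were listed too, at 1.07 and 0.370 FPKM in the second table and 0.678 and 0.219 FPKM in the first, so that fragments of MRPS31 could have been divided among near-identical copies.

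The paralogs MRPS18A, MRPS18B and MRPS18C all derive from bacterial S18 but occupy different places in the ribosome. MRPS18B was the highest, at 89.0 FPKM in the second table and 76.3 FPKM in the first. MRPS18A, the paralog in the large subunit, had 35.5 and 40.6 FPKM, and MRPS18C, which takes the place of bacterial S18, had 9.66 and 4.94 FPKM. The order was the same in both tables, but the ratios ran apart, with log2 ratios of 0.22 for MRPS18B, -0.19 for MRPS18A and 0.84 for MRPS18C.

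Between the tables, most members differed little. Of the 72 members above the level filter, 46 were higher in the second table and 26 lower, and the median log2 ratio, with 1 FPKM added to each value, was 0.09. Of the 7135 genes above that filter 57.2% were higher and 42.8% lower, with a median of 0.08. The members as a group thus lay near the background. At a size of 1.5-fold, 12 of the 72 (16.7%) were higher in the second table, against 12.0% of all genes above the filter, and 2 (2.78%) were lower, against 5.55%. The size is a fixed rule, since no replicate allows a test. At 2-fold the counts were 3 higher, against 1.70% of all genes, and 0 lower, against 0.869%.

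The subunits were described side by side. Of the 46 MRPL genes above the filter, 28 were higher and 18 lower in the second table, with a median log2 ratio of 0.07 and 8 and 1 past 1.5-fold. Of the 26 MRPS genes, 18 were higher and 8 lower, with a median of 0.16 and 4 and 1 past 1.5-fold. Placed by structure, the large subunit had 48 genes with a median of 0.07 and the small subunit 23 with a median of 0.19. The 29 large-subunit proteins classed as bacterial-type had a median of 0.12 and the 19 classed as mitochondria-specific 0.06. In the small subunit the medians were 0.09 over 15 bacterial-type and 0.29 over 8 mitochondria-specific proteins. MRPS18A and MRPS18B were classed as mitochondria-specific although they derive from bacterial S18, so the classes do not strictly divide proteins by a bacterial counterpart. The ranges of all these sets overlapped broadly, and whether the subunits differ was not tested.

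The large-subunit members higher by 1.5-fold or more in the second table were MRPL13, MRPL32, MRPL3, MRPL44, MRPL35, MRPL45, MRPL40 and MRPL20. MRPL13 (chromosome 8, 120395437 to 120445150, RefSeq GRCh38.p14), the counterpart of a bacterial protein of early assembly, stood highest of all, at 16.1 FPKM in the second table and 6.58 FPKM in the first, a log2 ratio of 1.18. Its locus also held MTBP and SNTB1, which were lower in the second table, at 2.99 and 4.10 FPKM and at 0.396 and 1.14 FPKM. MRPL32 (chromosome 7, 42932376 to 42937857), whose maturation by an inner-membrane protease is a step of ribosome assembly, had 19.4 FPKM in the second table and 8.59 FPKM in the first, a log2 ratio of 1.09. MRPL3 (chromosome 3, 131462212 to 131502971), close to the peptidyl transferase centre, was the most abundant of the 8, at 70.5 and 38.4 FPKM, a log2 ratio of 0.86. It was alone at its locus.

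MRPL44 (chromosome 2, 223950854 to 223967714), a protein with an RNase III fold, was listed at 14.3 FPKM in the second table and 7.45 FPKM in the first, a log2 ratio of 0.86. MRPL45 (chromosome 17, 38297168 to 38323211), which tethers the ribosome to the inner membrane, had 21.3 and 12.8 FPKM, a log2 ratio of 0.68. The others, MRPL35, MRPL40 and MRPL20, had log2 ratios of 0.79, 0.64 and 0.62. Once the shift of 0.05 in the median of the 14270 shared genes was subtracted, MRPL40 and MRPL20 came under 1.5-fold. MRPL18, at 34.6 and 23.0 FPKM, lay just under the size with a log2 ratio of 0.57, and just over it on the plain ratio of its FPKM. MRPL2 and MRPL4, counterparts of other bacterial core proteins, were listed at 52.8 and 44.1 FPKM in the second table and 58.4 and 50.5 FPKM in the first.

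The small-subunit members at least 1.5-fold higher were MRPS10, MRPS18C, MRPS27 and MRPS22. MRPS10 (chromosome 6, 42206807 to 42217861), the counterpart of bacterial S10 in the head of the subunit, was listed at 13.4 FPKM in the second table and 6.05 FPKM in the first, a log2 ratio of 1.04, and was alone at its locus. MRPS27 (chromosome 5, 72219403 to 72320240), a pentatricopeptide repeat protein, was the abundant one, at 72.4 and 43.6 FPKM, a log2 ratio of 0.72. MRPS22 had 14.5 FPKM in the second table and 8.55 FPKM in the first, a log2 ratio of 0.69.

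Lower by 1.5-fold or more in the second table were MRPL42 and MRPS36, both alone at their locus. MRPL42 (chromosome 12, 93467514 to 93516214), a mitochondria-specific protein, was listed at 5.57 FPKM in the second table and 9.96 FPKM in the first, a log2 ratio of -0.74. MRPS36 (chromosome 5, 69217760 to 69230158) had a log2 ratio of -0.70, and it is the member that is no part of the ribosome.

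The 6 members below the level filter were MRPS31, MRPS9, MRPL39, MRPS33, MRPL1 and MRPL50. MRPS31, MRPS9 and MRPL39 passed 1.5-fold, higher in the second table, with log2 ratios of 0.96, 0.88 and 0.86. MRPS33 and MRPL1 had 0.17 and 0.04, and MRPL50 had -0.28. With these included, 15 of 78 were higher past 1.5-fold and 2 lower, against 12.2% and 7.83% of all 14270 genes. In any size, 51 were higher and 27 lower, against 54.8% and 45.2% of all genes, and at 2-fold 3 were higher and 0 lower, against 2.04% and 1.68%. Low values rest on few fragments, and the depth of the tables is unknown.

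The members past 1.5-fold were also counted by level, with the genes above the filter in 4 classes of mean FPKM. In the lowest class, from 4.93 to 8.73 FPKM, 1 of 6 members was past 1.5-fold higher in the second table, against 18.3% of all genes of the class, and both members past it lower, MRPL42 and MRPS36, were here. In the next class, 7 of the 12 members between 8.73 and 16.5 FPKM were past 1.5-fold and higher in the second table, against 14.5% of all genes of that class, and the median log2 ratio was 0.66 for these 12 members and 0.12 for all genes of the class. The 7 were MRPL13, MRPL32, MRPL35, MRPL40, MRPL44, MRPS10 and MRPS22. Between 16.5 and 36.96 FPKM 1 of 22 members was past that size, against 9.76% of all genes there. Among the 32 members above 36.96 FPKM, 3 were past that size, against 5.61% of all genes there, and the medians were 0.07 and -0.02. The classes were formed with values of these genes known.

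Local gene density moved with the ratio. In 5 classes of density, counted as listed genes with a start no more than 1 Mb away, the 16 members with the fewest neighbours had a median log2 ratio of 0.45, with 15 of them higher in the second table, beside 0.32 over all genes of the class. The 16 members with the most neighbours had a median of -0.05, beside -0.14 over all genes of the class, and 8 were higher. The share of all genes that was higher was not counted by class. In the class with the fewest neighbours 6 of 16 members were past 1.5-fold higher, against 23.1% of all its genes. In that with the most it was 1 of 16, against 2.10%. Spearman's rho of ratio and density was -0.43 across the 72 members and -0.38 across all 7135 genes above the filter. Neighbouring genes share their density, so these are descriptions. MRPS30, with 2 listed neighbours, had a log2 ratio of 0.38, and MRPS34, with 100, had -0.33. The members thus followed the same order along gene density as other genes. The part of density in the single ratios was not tested, and MRPL20, at 69 neighbours, and MRPL42, at 14, stood away from it.

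**Figure D4:**
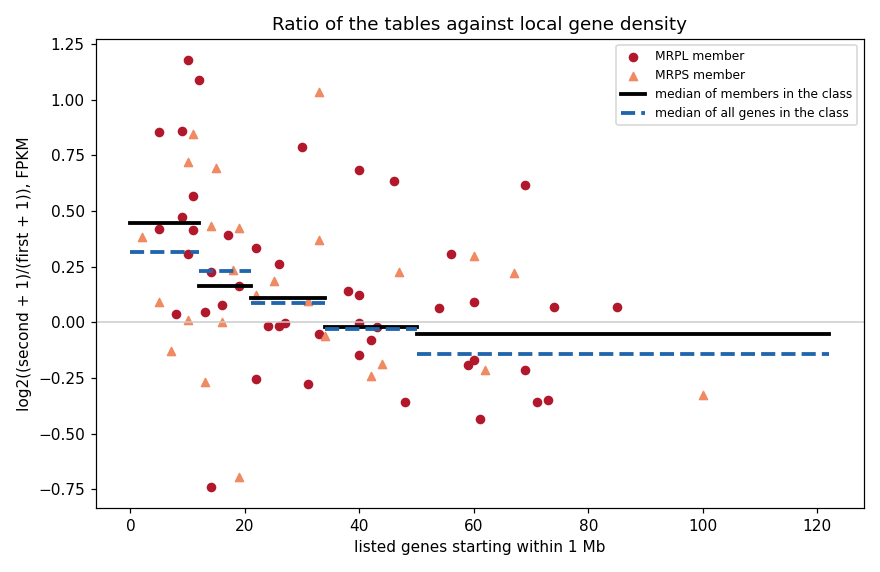
Log2 ratio of second over first table against local density (listed genes with a start no more than 1 Mb away), for the 72 members above the level filter, with the median of members (solid) and of all genes (dashed) in 5 classes of density. The member medians run from 0.45 in the class with the fewest neighbours to -0.05 in that with the most, beside 0.32 and -0.14 for all genes.

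Some of these genes sit head to head with another gene. Among the 69 members with a RefSeq promoter, 18 had a gene starting on the opposite strand within 500 bases before their own start, in 17 pairs. How often other genes have such a neighbour was not counted. For 12 pairs both genes were listed in both tables, and in 8 of them both lay on the same side of 0. Of all 14270 shared genes, 54.8% were higher in the second table and 45.2% lower, so unrelated genes often share a side too. How often other pairs of genes do so was not counted, and whether 8 of 12 exceeds it was not tested. MRPS12 and SARS2, a mitochondrial seryl-tRNA synthetase whose start lies 181 bases away, had log2 ratios of -0.24 and -0.38. MRPS27 and PTCD2, 133 bases apart, had 0.72 and 0.54. MRPS18C and HELQ, 175 bases apart, had 0.84 and 0.95, with HELQ at only 1.47 and 0.277 FPKM. MRPL32 and the proteasome gene PSMA2, 202 bases apart, had 1.09 and 0.21, so PSMA2 did not share the large ratio of MRPL32. RP11-111K18.1, at the same locus, had 0.90. MRPL49 and FAU, which encodes a protein of the cytosolic ribosome, lay 49 bases apart, with 0.07 and -0.07. The pair of MRPL46 and MRPS11, members of different subunits 320 bases apart, had 0.05 and -0.27, and was listed at 12.98 and 16.0 FPKM in the second table and 12.5 and 19.5 FPKM in the first.

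Genes that work with the ribosome lay on both sides of 0. Of 5 ribosomal proteins with other symbols, DAP3, a GTP-binding protein of the small-subunit head, was listed at 52.3 FPKM in the second table and 36.1 FPKM in the first, and CHCHD1 at 24.2 and 16.6 FPKM. PTCD3, a pentatricopeptide repeat protein, had 11.9 and 8.55 FPKM. AURKAIP1, at 54.6 and 72.6 FPKM, and GADD45GIP1, at 23.7 and 28.8 FPKM, were lower in the second table. None of the 5 passed 1.5-fold, and their median log2 ratio was 0.44.

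Of 24 factors of ribosome assembly and rRNA modification above the filter, 4 passed 1.5-fold with the higher value in the second table and 0 with the lower, with a median log2 ratio of 0.03. These shares, 16.7% and 0%, stand beside 12.0% and 5.55% of all genes above the filter. The 4 were MRM3, MRM2, MALSU1 and NSUN4. MRM3 and MRM2, which methylate riboses of the large-subunit rRNA, were listed at 16.7 and 18.4 FPKM in the second table and 8.56 and 9.75 FPKM in the first. MALSU1, an assembly factor of the large subunit, had 11.7 and 6.38 FPKM. NSUN4, which makes 5-methylcytosine in the small-subunit rRNA, had 15.3 and 9.59 FPKM (log2 ratio 0.62). METTL15, another methyltransferase of that rRNA, lay below the filter and was listed at 2.07 and 4.28 FPKM.

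Of 10 translation factors above the filter, 7 (70%) were higher in the second table and 3 lower, against 57.2% higher of all genes above the filter. None of the 10 passed 1.5-fold with 1 FPKM added to each value, though GFM2 and MTFMT pass it on the plain ratio of their FPKM. GFM2, a ribosome recycling factor, was listed at 6.09 FPKM in the second table and 3.84 FPKM in the first, MTFMT, which formylates the initiator tRNA, at 7.09 and 4.61 FPKM, and GFM1, an elongation factor, at 14.6 and 10.7 FPKM. Below the filter, the release factor gene MTRF1 was listed at 0.957 and 3.21 FPKM (log2 ratio -1.10). Of 19 mitochondrial tRNA synthetases and related genes above the filter, 2 were past 1.5-fold higher (IARS2 and KARS) and 1 past it lower (VARS2). These shares, 10.5% and 5.26%, lie near the 12.0% and 5.55% of all genes above the filter. IARS2 was listed at 29.2 and 17.4 FPKM and VARS2 at 11.6 and 19.1 FPKM. KARS, which is also the cytosolic enzyme, had 40.4 and 25.8 FPKM, and PARS2, below the filter, 2.63 and 4.87 FPKM.

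Genes of respiratory chain and ATP synthase subunits and the RNAs of the ribosome were also listed. Of these subunits, the ribosome makes only those encoded in the mitochondrial genome. Of 74 nuclear respiratory chain and ATP synthase subunits, 44 (59.5%) were higher and 30 lower in the second table, against 57.2% higher of all genes above the filter. Their median log2 ratio was 0.08. Past 1.5-fold, 3 (4.05%) were higher and 1 (1.35%) lower, fewer than the 12.0% and 5.55% of all genes above the filter. NDUFB6, a complex I subunit, had the largest difference, at 17.7 and 7.70 FPKM. The complex I subunits NDUFS1 (11.4 and 5.83 FPKM) and NDUFB3 (16.5 and 10.1 FPKM) were also past that size, and NDUFS7, at 53.1 and 80.3 FPKM, was the lower one. Of 13 mitochondrially encoded mRNAs, 1 was higher and 12 lower, with a median of -0.28, against 42.8% lower of all genes above the filter. These 13 come from the same small genome and are not independent, so their counts are descriptions. MT-CYB and MT-CO2 were past 1.5-fold lower (15.4%, against 5.55%). MT-CO2 was listed at 1235 FPKM in the second table and 1975 FPKM in the first, MT-CO3 at 2253 and 3282 FPKM and MT-ND1 at 1121 and 1455 FPKM. MT-RNR2, the large-subunit rRNA, was listed at 165 FPKM in the second table and 153 FPKM in the first, and MT-RNR1, the small-subunit rRNA, at 434 and 272 FPKM. Neither labels nor headers say how rRNA was treated in the libraries. Of 9 regulators above the filter, 4 were higher and 5 lower in the second table, with a median log2 ratio of -0.04. TFAM, which packages mitochondrial DNA and starts its transcription, lay below the filter, at 6.86 FPKM in the second table and 2.96 FPKM in the first. Values for TFB2M were 9.16 and 6.18 FPKM, and those for POLRMT, the mitochondrial RNA polymerase, 65.7 and 88.8 FPKM.

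**Figure D5:**
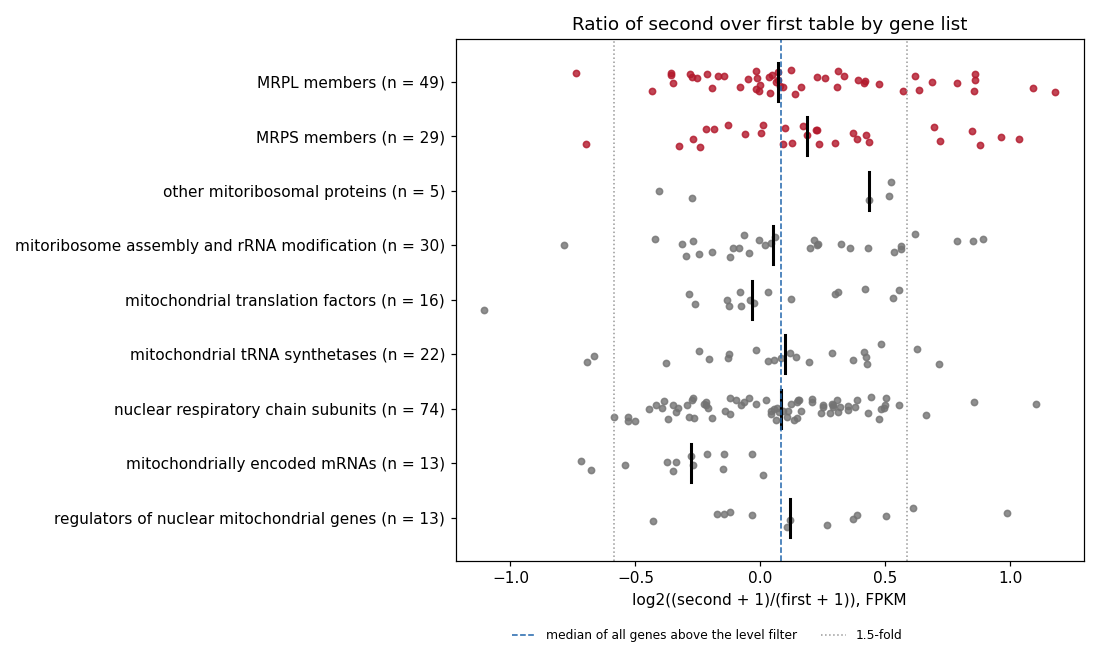
Log2 ratio of second over first table for each gene in both tables, by list, with a black bar at each list's median, a dashed line at the median of all genes above the level filter (0.08) and dotted lines at 1.5-fold. The 49 MRPL and 29 MRPS genes spread on both sides of that line with medians of 0.07 and 0.19, and 12 of 13 mitochondrially encoded mRNAs lie below 0.

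DNMT1 was listed at 9.36 FPKM in the second table and 23.3 FPKM in the first, and NSUN2 at 1147 and 559 FPKM, and no group was assigned from these values. Of the 78 members, 38 shared their locus string with at least 1 other identifier and 40 did not, and the members alone at their locus had a median log2 ratio of 0.15, against 0.08 for those that shared it.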

How the data were processed

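The values were 2 deposited tables of FPKM per gene, each with an identifier, a symbol, a locus and 1 FPKM column, per the file headers. FPKM was computed by the authors with a tool that neither labels nor headers name. Listed in the submitters' processing notes are BWA 0.7.13, cutadapt 1.12, MACS 1.4.2 and hg38 as build, without roles. No column names a sample, so the tables are called the first and the second, and the group tests of the written design could not be run. The depth is unknown. Since FPKM is relative to a total, abundant RNAs move the others.

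A pseudocount of 1 FPKM was added to each value before the log2 ratio of second over first was taken, so differences of low genes are understated. The level filter kept genes with a mean above 4.93 FPKM. The size of 1.5-fold stands in for a test. Genes named were those past that size, the 6 highest and 4 lowest of the MRPL and of the MRPS genes by mean level, the MRPS18 paralogs, list members with large differences, DNMT1 and NSUN2, and further members were added after their values were seen. No member had a second identifier. Cytosolic ribosomal proteins, a planned list, are not analysed here. Members, lists and motifs were chosen with earlier results of these data known. Gene coordinates and promoters are RefSeq's (GRCh38.p14), with the first promoter entry of a gene used. The counting was tested on simulated data. Python 3.11.15, pandas 2.3.3, numpy 2.4.6, scipy 1.17.1 and matplotlib 3.10.9 were used. Alternatives were the pseudocount, the level filter, shared loci, centring, a 2-fold size, subunits by structure and the promoter window.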

Additional observations from a re-analysis of the deposited data

How the results depend on the processing

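No paired analysis was possible because neither table carries a replicate number. Leaving out a replicate, the replicate block and summing identifiers could not be run for the same reason or, for the last, because no member has more than 1 identifier. With no replicate, a median log2 ratio was taken as moved past 0.1 and a count past 1.5 times. By these measures 106 summary values stayed and 14 moved. No called gene changed sign, but none of these settings could have reversed a gene past 1.5-fold. Among genes sharing no locus, where 34 members remain by construction, 21 were higher and 13 lower in the second table. Of these, 15 and 9 were MRPL genes and 6 and 4 MRPS genes. Past 1.5-fold, 5 members were higher. Of all genes sharing no locus, 59.1% were higher and 13.2% past 1.5-fold higher. At 2-fold 3 were higher and 0 lower, by construction. At a mean of at least 10 FPKM, 0 were lower past 1.5-fold, since MRPL42 and MRPS36 lie under that level. Centring on the median of all genes gave 42 higher and 30 lower members and 10 past 1.5-fold higher, against 9.64% of all genes. The translation factors had a median of 0.21 above the filter, -0.034 with no filter and 0.076 at 10 FPKM, and the regulators -0.04 above the filter and 0.12 with none, as genes of low level enter or leave. With the 250 bases before the start only, chosen after seeing the data, 5 members held the YY1 letters, since most sites lie after the start. The depth of the tables is unknown, which leaves the precision of every single ratio unknown.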
